A study of Mus musculus with 11 samples.

Results

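The 8 genes described here are interferon-induced genes and regulators of the interferon response. They were chosen by symbol from the 7114 genes that the arrays named, with earlier results of these data known. Each was read by 1 probe. Bst2 and Ifitm3 encode membrane proteins that hold back enveloped viruses, and Tgtp1 and Igtp encode GTPases that act on the vacuoles of intracellular pathogens. Ddx58 encodes RIG-I, a cytosolic sensor of viral RNA. Stat2, Irf9 and Irf1 encode transcription factors of the pathway.

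Interferons are secreted proteins that warn cells of infection. Type I interferons activate a complex holding Stat2 and Irf9 that binds the interferon-stimulated response element (ISRE), while the response to interferon gamma acts through the gamma-activated site (GAS). Irf1 is itself induced by interferon gamma and binds elements like the ISRE. Most cells keep these genes low until interferon reaches them, and cells of the immune system and barrier tissues tend to carry more of their products.

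The matches to both elements near the start of each gene are shown first. Both elements are known from interferon-induced genes, and the 8 were chosen as such genes and their regulators. An excess of matches among the 8 is therefore no independent result. RefSeq windows of build GRCm38.p6, from 250 bases before to 50 bases after each annotated start, were found for 8 of the 8 genes. They were searched for GAAANNGAAA (ISRE) on both strands and for TTCNNNGAA (GAS), which reads alike on both strands. An ISRE match lay in a window of 6 of the 8 genes, against 3.99% of the 27025 genes with a window. A GAS match lay in 5 of the 8, against 9.55%, and both lay in 4 of the 8, against 0.540%. The windows below are printed 5′ to 3′ along the gene, with matched bases in capitals; adjoining and overlapping matches run together.
Tgtp1 (chr11:48992302-48992361, minus strand): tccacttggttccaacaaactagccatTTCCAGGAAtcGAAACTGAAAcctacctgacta
Igtp (chr11:58199486-58199545, plus strand): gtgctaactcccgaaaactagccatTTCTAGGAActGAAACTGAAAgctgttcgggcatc
Bst2 (chr8:71537568-71537627, minus strand): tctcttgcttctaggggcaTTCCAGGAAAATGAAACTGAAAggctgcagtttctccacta
Stat2 (chr10:128270258-128270317, plus strand): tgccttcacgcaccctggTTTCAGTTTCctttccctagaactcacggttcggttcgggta
Irf1 (chr11:53769899-53769958, plus strand): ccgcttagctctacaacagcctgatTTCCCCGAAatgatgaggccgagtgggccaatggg
Ifitm3 (chr7:141010715-141010744, minus strand): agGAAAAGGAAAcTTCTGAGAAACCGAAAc
Ddx58 (chr4:40239796-40239825, minus strand): agTTTCGATTTCctatggccagccggctag

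The GTPase genes Tgtp1 and Igtp shared an arrangement, a GAS match followed by an ISRE match. In Tgtp1 these began 88 and 77 bases before the start, and in Igtp 45 and 34. Bst2 held a GAS match that began 136 bases before the start and overlapped the first of its ISRE matches, which began 130 and 124 bases before it. Stat2 held an ISRE match in the reverse orientation, TTTCAGTTTC, that began 222 bases before the start. In Ifitm3 and Ddx58 the matches lay just past the annotated start, from base 3 in both, and the windows printed for them are the first 30 transcribed bases. Irf1 held a GAS match and no ISRE match, and Irf9 held neither in its windows. A match is a description of letters and does not show binding.

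**Figure D1:**
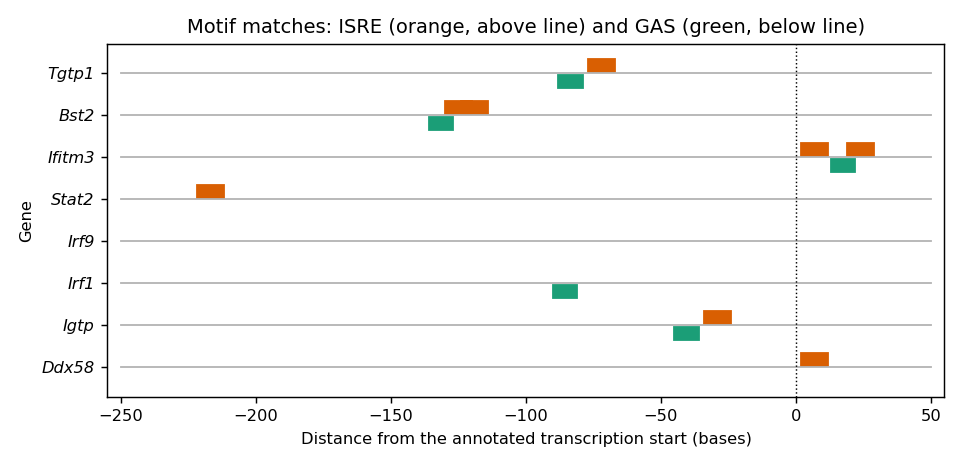
Positions of ISRE matches (orange, above each line) and GAS matches (green, below each line) in bases from the annotated start, in a window of 250 bases before to 50 bases after it. 6 of the 8 genes have an ISRE match and 5 have a GAS match; Irf9 has neither.

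RNA from 11 mouse samples was measured on 2-colour arrays, 1 array each, with the sample labelled in Cy3 and a mouse embryo reference in Cy5, in a series whose title concerns RAS isoforms in melanocytes. MEL was read as melanocyte. D6_MEL carries no RAS name and has the description code C3, NRAS_MEL has that code with Nras added, HRAS_MEL has a different code, and the name Melan A is that of a mouse melanocyte line in wide use. 3T3 and VA_MEF (BAKE) were read as fibroblast lines, Heart, Kidney, Liver and Lung are organs, and the cell type of VA_475 (B475) is not in the labels. No genotype, treatment, age or strain is given, nor whether a line is 1 clone, and no group had a replicate array.

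The values are ratios of the sample's own RNA over the reference, taken as log2 after the sign of the deposited table was turned. That direction is likely, not stated: in it Alb stood at 2.54 on the array labelled Lung and between -8.22 and -6.21 on the other 10, and Miox at 6.0 on Kidney alone. If the table ran the other way, as the order of names in the sample titles would have it, every sign below would turn. Several labels went against marker genes. The liver markers had their highest median (2.94, 4 genes) on the array labelled Lung, the lung marker Sftpd its highest level (5.75) on the array labelled Liver, and the heart markers Fabp3 (3.13) and Nppb (4.42) theirs on the array labelled Melan A. The pigment cell genes Mlph and Rab38 stood at 3.06 and 3.40 in VA_MEF, and Mlph at 2.94 on the array labelled Heart. Those 5 arrays are therefore named by their labels throughout, and the main results that rest on the arrays labelled Heart and Melan A are given with and without them. Of 19 listed pigment cell genes 5 were measured, and defining ones such as Mitf and Tyr were not among them. These 5 differed in how they bore on the MEL labels. Mlph was high (3.18 in D6_MEL, 2.55 in NRAS_MEL and 2.36 in HRAS_MEL, against -0.71 in 3T3), but Rab38 stood at 0.06, 0.04 and -0.99, against -0.93 in 3T3. Kit stood at -1.09, -1.17 and -1.93, Ednrb at -2.79, -2.41 and -2.98 and Rab27a at -0.59, -0.50 and -0.82.

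With 1 probe per gene and 1 array per label, no value below has a replicate error. As a measure of precision, the 1324 genes with exactly 2 probes were used: their probes disagreed on the difference between 2 arrays by a median of 0.392 (log2), with a 90th percentile of 1.33. Tgtp1 had no value on VA_475 or on the arrays labelled Heart and Lung. Tgtp1 has a near-identical neighbour, Tgtp2, and Ifitm3 has close relatives, so their probes may also read RNA of those genes.

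Among the 3 MEL arrays, D6_MEL held the lowest level of 6 of the 8 genes and HRAS_MEL the highest of 6, against 34.1% and 32.5% of all genes with a value on the 3 arrays. Bst2 stood at -0.95 in D6_MEL, 1.52 in NRAS_MEL and 2.24 in HRAS_MEL, so D6_MEL lay below the reference and both RAS-labelled arrays above it. Ifitm3 followed the same order, at -1.33, 0.83 and 1.25. Stat2 did so over a narrower span, at -0.67, 0.46 and 0.62. Some ranks behind the counts of 6 rest on steps smaller than the median probe disagreement of 0.392. These include Stat2 in NRAS_MEL minus HRAS_MEL (-0.16) and Igtp in NRAS_MEL minus D6_MEL (0.09).

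Tgtp1 was the exception at the top of the order, at -0.73 in D6_MEL, 1.11 in HRAS_MEL and 2.18 in NRAS_MEL, which was its highest level on any of the 8 arrays that measured it. The regulators and the second GTPase split the RAS-labelled arrays. Irf9 stood at -1.30 in D6_MEL and -0.87 in NRAS_MEL but at 0.95 in HRAS_MEL. Irf1 stood at -0.34 in both D6_MEL and NRAS_MEL and at 0.93 in HRAS_MEL. Igtp stood at -1.22, -1.12 and 0.24 in the same order, so for these 3 genes NRAS_MEL lay beside D6_MEL. Ddx58, the RNA sensor, ran the other way, with its highest MEL level in D6_MEL at 0.71, then 0.40 in HRAS_MEL and 0.31 in NRAS_MEL, steps about as small as the disagreement between probes.

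Read against the embryo reference, D6_MEL had 0 of the 8 genes at least 2-fold above it (4.61% of all genes) and 3 at least 2-fold below (10.1%), namely Ifitm3, Irf9 and Igtp. NRAS_MEL had 2 above (4.79%), Tgtp1 and Bst2, and 1 below (11.4%), Igtp. HRAS_MEL had 3 above (4.09%), Tgtp1, Bst2 and Ifitm3, and 0 below (10.4%).

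**Figure D2:**
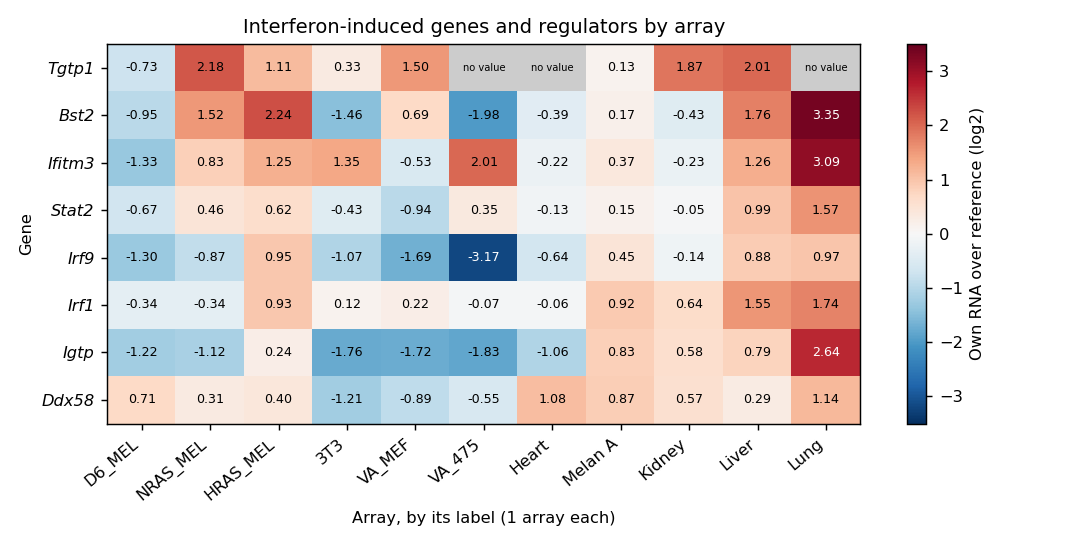
Level of each gene (rows) on each array (columns, by label, 1 array each) as own RNA over reference on the log2 scale; red is above and blue below the reference, and grey squares had no value. In HRAS_MEL 3 of the 8 genes lie at least 2-fold above the reference (4.09% of all genes), and in D6_MEL 0 of 8 do (4.61%).

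NRAS_MEL exceeded D6_MEL by at least 2-fold in 4 of the 8 genes, where it did so in 2.46% of 7069 genes. None of the 8 was 2-fold lower, where 4.4% were. Tgtp1 differed by 2.91 on the log2 scale, 7.53-fold, and was the 7th highest of all differences. Bst2 at 2.47 was the 13th and Ifitm3 at 2.16 the 18th, and Stat2 at 1.13 the 128th. Irf9 at 0.44, Igtp at 0.09, Irf1 at -0.0034 and Ddx58 at -0.40 lay within 2-fold. The median of the 8 was 0.78, against 0.02 over all genes. There is no test of a difference between single arrays, and 90% of the 2-probe genes agreed on this one within 1.20. The 8 were chosen with results of these data known. Here and in the comparisons below, an excess of their counts over the shares of all genes is therefore no independent result.

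HRAS_MEL exceeded D6_MEL by at least 2-fold in 7 of the 8 genes, where it did so in 5.23% of 7078 genes, and none was 2-fold lower, where 5.91% were. Bst2 was highest at 3.19, 9.15-fold, followed by Ifitm3 at 2.58 and Irf9 at 2.25. Tgtp1 at 1.84, Igtp at 1.46, Stat2 at 1.29 and Irf1 at 1.27 came next, and Ddx58 lay at -0.30. The median of the 8 was 1.65, against -0.01 over all genes. The difference in both RAS-labelled arrays uses the same D6_MEL array, so their likeness in Bst2, Ifitm3, Stat2 and Tgtp1 is not 2 independent observations. HRAS_MEL and D6_MEL also have different description codes, so RAS label and line cannot be told apart in their difference.

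**Figure D3:**
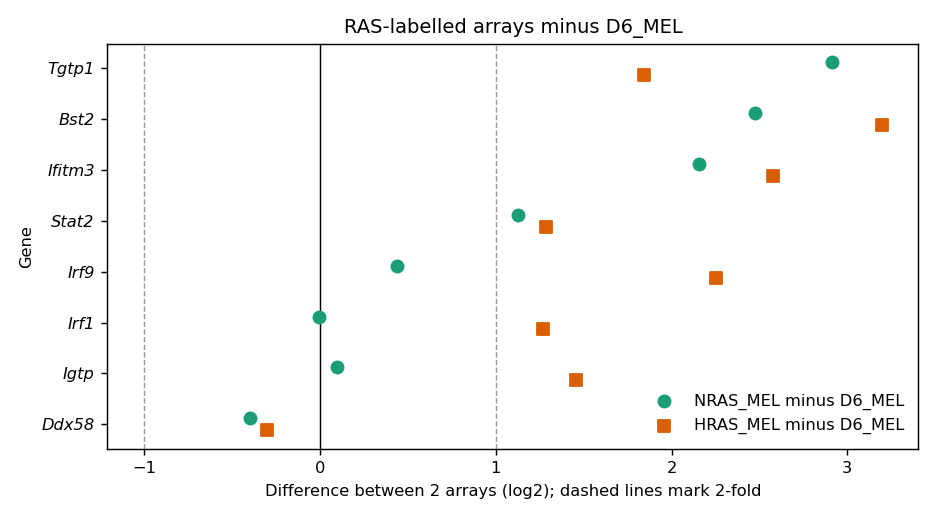
Difference in log2 level from D6_MEL of NRAS_MEL (green circles) and HRAS_MEL (orange squares) for each gene, 1 array each; dashed lines mark 2-fold. 4 genes lie past 2-fold in NRAS_MEL and 7 in HRAS_MEL, and Ddx58 lies below 0 in both.

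Set directly against each other, a comparison without D6_MEL, NRAS_MEL was at least 2-fold lower than HRAS_MEL in 3 of the 8 genes, where 5.08% of 7073 genes were. These were Irf9 at -1.82, Igtp at -1.36 and Irf1 at -1.27. Tgtp1 was 2-fold higher in NRAS_MEL, at 1.07, where 4.27% of genes were. Bst2 at -0.72, Ifitm3 at -0.42, Stat2 at -0.16 and Ddx58 at -0.10 lay within 2-fold. The RAS-labelled arrays were therefore furthest apart in Irf9, which binds the ISRE with Stat2, and close in Stat2 itself.

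The choice of control array weighed on these counts. D6_MEL differed little from the array labelled Heart, being at least 2-fold higher in 1.23% of genes and lower in 0.862%. D6_MEL lay below that array in 7 of the 7 genes measured on both, while it lay above in 50.028% of 7076 genes. The median difference of the 7 was -0.53, against 0.00013 over all genes. Of the 7, 1 gene, Ifitm3 at -1.11, was 2-fold lower than on that array. With it in place of D6_MEL, 2 of 7 genes were 2-fold higher in NRAS_MEL (Bst2 at 1.91 and Ifitm3 at 1.04), where 3.99% of genes were. In HRAS_MEL 4 of 7 were (Bst2 at 2.63, Irf9 at 1.58, Ifitm3 at 1.47 and Igtp at 1.30), where 5.43% were. None was 2-fold lower than on that array in NRAS_MEL (5.23% of genes) or HRAS_MEL (6.1%). With the array labelled Melan A instead, 2 of 8 were 2-fold higher in NRAS_MEL (Tgtp1 at 2.05 and Bst2 at 1.35), where 13.1% of genes were, and 3 were 2-fold lower (Igtp at -1.95, Irf9 at -1.32 and Irf1 at -1.26), where 15.7% were. In HRAS_MEL 1 was higher, Bst2 at 2.07, where 11.9% were, and 0 were lower, where 14.5% were. Tgtp1 has no value on the array labelled Heart, so the control arrays were also compared on the other 7 genes. In NRAS_MEL 3 of these 7 were 2-fold higher than in D6_MEL, 2 than on the array labelled Heart and 1 than on that labelled Melan A, with medians of 0.44, -0.06 and -0.56. In HRAS_MEL 6, 4 and 1 were, with medians of 1.46, 1.30 and 0.47. Bst2 was thus at least 2-fold higher in both RAS-labelled arrays than in any of the 3 control arrays. The share of all genes for which this held was not counted. The smallest of these Bst2 differences was 1.35, in NRAS_MEL against the array labelled Melan A. It was near the 90th percentile of probe disagreement, 1.33.

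A limma fit then compared NRAS_MEL and HRAS_MEL, as a pair, with a pair of controls. The controls were D6_MEL and the array labelled Melan A, which carries heart markers, and the array labelled Heart was not used. Arrays under different labels stand in for replicates. NRAS_MEL and D6_MEL share a description code, lie on opposite sides of the fit and were not paired. Bst2 had a mean of 1.88 ± 0.51 (SD, n = 2) in the pair and -0.39 ± 0.79 (SD, n = 2) in the controls, a difference of 2.27 ± 0.53 (SE) that did not pass the threshold (limma adjusted p = 0.882, Benjamini-Hochberg over 7053 genes). Tgtp1 at 1.95 ± 0.54, Ifitm3 at 1.52 ± 0.65 and Stat2 at 0.80 ± 0.41 did not pass either. With 2 arrays a side and controls this far apart, the fit had too little power for any of these genes to pass, and missing the threshold says nothing about them. Irf9 at 0.47, Irf1 at 0.01, Igtp at -0.25 and Ddx58 at -0.43 had standard errors of 0.32 or more. Limma called 0 of 7053 genes (0.0%), and 218 of them had an unadjusted p under 0.05. The pair lay above both controls in 4 of the 8 genes (Tgtp1, Bst2, Ifitm3 and Stat2), where 17.7% of all genes did, and below both in Ddx58, where 17.4% did. Without the array labelled Melan A the differences were 2.83 for Bst2, 2.38 for Tgtp1, 2.37 for Ifitm3 and 1.21 for Stat2, and without D6_MEL they were 1.71, 1.52, 0.66 and 0.39. Each of those fits has 1 control array, assumed to vary as the RAS-labelled pair does. Without D6_MEL 441 genes passed, against the array that carries heart markers.

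Other genes of the pathway were taken from lists of receptors, kinases, sensors, GTPases, effectors and inhibitors. Of 168 listed beside the 8, 39 were measured; no interferon gene was, and the receptor subunit Ifngr2 was the only receptor. In NRAS_MEL 5 of the 39 were at least 2-fold above D6_MEL (2.46% of all genes) and 1 was below (4.4%), with a median of 0.08. The highest were Daxx, a nuclear repressor, at 1.55, the surface protein gene Ly6e at 1.33, the feedback inhibitor Socs3 at 1.09 and Ifitm2, a relative of Ifitm3, at 1.04. The lowest were the phosphatase Ptpn6 at -1.07, the RNA-sensing synthetase Oas1a at -0.95, Ifrd1 at -0.59 and the kinase Jak2 at -0.53.

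In HRAS_MEL 7 of the 39 were 2-fold above D6_MEL (5.23% of all genes) and 1 below (5.91%), with a median of 0.45. Socs3 at 1.79, Ly6e at 1.71, Ifitm2 at 1.59 and the proteasome activator Psme1 at 1.23 were the highest. Irf3, the factor that switches on interferon beta, was the lowest at -1.50, before Jak2 at -0.69, Ptpn11 at -0.39 and Oas1a at -0.37. Between NRAS_MEL and HRAS_MEL, Irf3 at 1.40, Daxx at 1.36, Sp110 at 0.50 and Ifi27 at 0.41 led upward, and the STAT inhibitor gene Cish at -1.51, Nampt at -0.98, the kinase Ikbke at -0.90 and Pias1 at -0.90 downward. The medians of the 8 in the same comparisons were 0.78, 1.65 and -0.57, and of the 39 they were 0.08, 0.45 and -0.32; the 8 were chosen with results of these data known, so the gap was not tested. For MHC class I presentation, with 7 genes measured, 1 was at least 2-fold higher and 2 lower in NRAS_MEL than in D6_MEL (median 0.43), and 3 were higher and 0 lower in HRAS_MEL (median 0.53).

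Leukocyte markers were looked at beside these differences. The 10 measured markers had medians of -1.62 in D6_MEL, -1.07 in NRAS_MEL and -1.43 in HRAS_MEL, and ranged from -3.71 to 0.23 over the 3 arrays. Against D6_MEL their median was 0.17 in NRAS_MEL, with 2 at least 2-fold higher, and -0.04 in HRAS_MEL, with 2 higher and 1 lower. The higher markers were the same 2 in both: Laptm5, a lysosomal protein of blood cells, at -3.71 in D6_MEL, -0.95 in NRAS_MEL and -2.52 in HRAS_MEL, and the complement gene C1qc at -2.35, -0.96 and -1.10. The lower one in HRAS_MEL was the lysozyme gene Lyz2, at -1.95 in D6_MEL, -2.42 in NRAS_MEL and -3.23 in HRAS_MEL.

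Fibroblast and pigment cell markers also moved in HRAS_MEL. Against D6_MEL, 4 of 10 fibroblast markers were at least 2-fold higher there and 1 was lower, by up to 3.52 (log2) and with a median of -0.0038, where 0 of 9 were 2-fold apart in NRAS_MEL. The collagen gene Col1a2 stood at -6.57 in D6_MEL, -6.68 in NRAS_MEL and -3.05 in HRAS_MEL; the others higher were Fn1, Pdgfrb and Dcn, and Col3a1 was lower. All 5 pigment cell markers were lower in HRAS_MEL than in D6_MEL, with a median of -0.83 and 1 of them (Rab38) past 2-fold, while their median in NRAS_MEL was -0.02. The part of these markers in the differences of the 8 genes was not tested.

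Over all 11 arrays, the array labelled Lung held the highest level of 7 of the 8 genes, and of 7 of the 7 it measured, where it held the highest of 12.5% of all genes. With quantile normalization that count fell to 2, so the order at the top depends on scaling. On that array Bst2 stood at 3.35, Ifitm3 at 3.09, Igtp at 2.64, Irf1 at 1.74, Stat2 at 1.57, Ddx58 at 1.14 and Irf9 at 0.97. In all, 6 of 7 were at least 2-fold above the reference, where 9.6% of genes were, and 0 were 2-fold below it (12.7%). On the array labelled Liver 4 of 8 were (6.12% of genes): Tgtp1 at 2.01, Bst2 at 1.76, Irf1 at 1.55 and Ifitm3 at 1.26. Stat2 at 0.99, Irf9 at 0.88, Igtp at 0.79 and Ddx58 at 0.29 followed there, and 0 were 2-fold below (6.57%).

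The Kidney array was lower and more mixed, with 1 of 8 genes 2-fold above the reference (8.81% of genes), Tgtp1 at 1.87. Irf1 at 0.64, Igtp at 0.58 and Ddx58 at 0.57 lay above the reference, and Stat2 at -0.05, Irf9 at -0.14, Ifitm3 at -0.23 and Bst2 at -0.43 below it, none of them by 2-fold (10.6%). The array labelled Melan A held all 8 genes between 0.13 (Tgtp1) and 0.92 (Irf1), none of them 2-fold above the reference (10.8% of genes) or below it (13.0%). On the array labelled Heart, Ddx58 stood above the reference at 1.08 and the others below it, from -1.06 (Igtp) to -0.06 (Irf1). That made 1 of 7 2-fold above (5.84% of genes) and 1 below (11.1%).

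The fibroblast-labelled arrays and VA_475 were low in the ISRE-binding factor Irf9 and in Igtp, and split in Ifitm3, which was above the reference in 3T3 and VA_475 and below it in VA_MEF. Irf9 stood at -1.07 in 3T3, -1.69 in VA_MEF and -3.17 in VA_475, its lowest level, 1.49 below the next array. Igtp stood at -1.76, -1.72 and -1.83, and Ddx58 at -1.21, -0.89 and -0.55, which made these 3 arrays the lowest of the 11 for both genes. Bst2 stood at -1.46 in 3T3 and -1.98 in VA_475 but at 0.69 in VA_MEF. Ifitm3 stood at 1.35 in 3T3, 2.01 in VA_475 and -0.53 in VA_MEF. Tgtp1 stood at 0.33 in 3T3 and 1.50 in VA_MEF. Stat2 stood at -0.43 in 3T3, -0.94 in VA_MEF and 0.35 in VA_475, and Irf1 at 0.12, 0.22 and -0.07.

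By the reference, 3T3 had 1 of 8 genes 2-fold above (2.63% of genes) and 4 below (10.1%), VA_MEF 1 above (5.05%) and 2 below (14.9%), and VA_475 1 of 7 above (5.49%) and 3 below (13.3%). The genes above were Ifitm3 in 3T3 and VA_475 and Tgtp1 in VA_MEF. VA_MEF was at least 2-fold above 3T3 in Bst2 (2.15) and Tgtp1 (1.18), where 5.87% of genes were, and below it in Ifitm3 (-1.88), where 7.89% were. Between VA_475 and 3T3, 0 of 7 genes were 2-fold higher (3.18% of genes) and 1 was lower, Irf9 at -2.11, where 4.04% were.

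The genes differed in how far apart the arrays lay. From highest to lowest array Bst2 spanned 5.33, Igtp 4.48, Ifitm3 4.42 and Irf9 4.14, against a median span of 1.54 over all genes, and 2.32% to 6.23% of genes spanned more than these. Tgtp1 spanned 2.91 over 8 arrays, Stat2 2.50, Ddx58 2.35 and Irf1 2.09. Most neighbours in the order of arrays lay closer than the probe disagreement of 0.392. This held for 9 of 10 gaps in Stat2 and Ddx58, 8 of 10 in Irf1, 7 of 10 in Igtp, 6 of 10 in Irf9, 4 of 7 in Tgtp1, 4 of 10 in Ifitm3 and 2 of 10 in Bst2. The widest gaps were 1.82 in Igtp, between the arrays labelled Lung and Melan A, 1.49 in Irf9, between VA_MEF and VA_475, and 1.11 in Bst2, between the array labelled Lung and HRAS_MEL.

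HRAS_MEL lay within the range of the arrays labelled Kidney, Liver and Lung for 6 of the 8 genes, NRAS_MEL for 4 and D6_MEL for 1, where 42.0%, 39.5% and 41.7% of all genes did. The 5 arrays labelled as MEL or fibroblast lines were tested against these 3 with limma. Among the 5, D6_MEL and NRAS_MEL share a description code and may not be independent. The arrays labelled Heart and Melan A were left out because of the markers above, and VA_475 because its cell type is not given. All 7 genes tested had lower means in the lines, where 3677 of 7044 genes did. The median difference of the 7 was -1.15, against -0.03 over all genes. Igtp passed, with -1.11 ± 0.81 (SD, n = 5) in the lines and 1.34 ± 1.13 (SD, n = 3) in the organs, a difference of -2.45 ± 0.58 (SE; limma adjusted p = 0.0409). So 1 of 7 was called lower, where 3.79% of 7044 genes were. Igtp was also the only one of the 7 whose classes did not overlap, which is near the 10.3% of all genes that lay lower in all lines.

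The other genes did not pass this test. On simulated data the fit recovered 20 of 50 genes shifted by 1 (log2) and 40 of 50 shifted by 2. At differences near 1, missing the threshold therefore does not show that a gene was alike in both classes. Irf1 differed by -1.19 ± 0.36 (limma adjusted p = 0.0765), Irf9 by -1.37 ± 0.56, Bst2 by -1.15 ± 1.02, Ifitm3 by -1.06 ± 0.83, Stat2 by -1.03 ± 0.47 and Ddx58 by -0.80 ± 0.47. Single arrays weighed on these: without the array labelled Lung the difference was -0.26 for Bst2, -0.20 for Ifitm3 and -0.67 for Stat2, and without Kidney -2.15, -1.86 and -1.47. Without 3T3, Bst2 was at -0.69 and Ddx58 at -0.53, and without D6_MEL Ifitm3 was at -0.65. HRAS_MEL was the highest line for Bst2, Stat2, Irf9, Irf1 and Igtp, and without it Irf9 (-1.80, limma adjusted p = 0.0317) and Irf1 (-1.40, limma adjusted p = 0.0494) passed too. Tgtp1, with no value on the array labelled Lung, was tested on 5 lines and 2 organs and differed by -1.06 ± 0.69, which did not pass (limma adjusted p = 0.366). The Igtp call was lost under 8 of 17 alternatives, with limma adjusted p from 0.0189 to 0.583. They were the fits without 3T3 (0.0953), D6_MEL (0.0847), NRAS_MEL (0.0861), VA_MEF (0.0712), Kidney (0.0609) or Lung (0.0994), with MEL lines alone (0.166) and with the arrays labelled Heart and Melan A (0.583); the difference stayed below 0 in all 17, from -2.83 to -1.53.

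**Figure D4:**
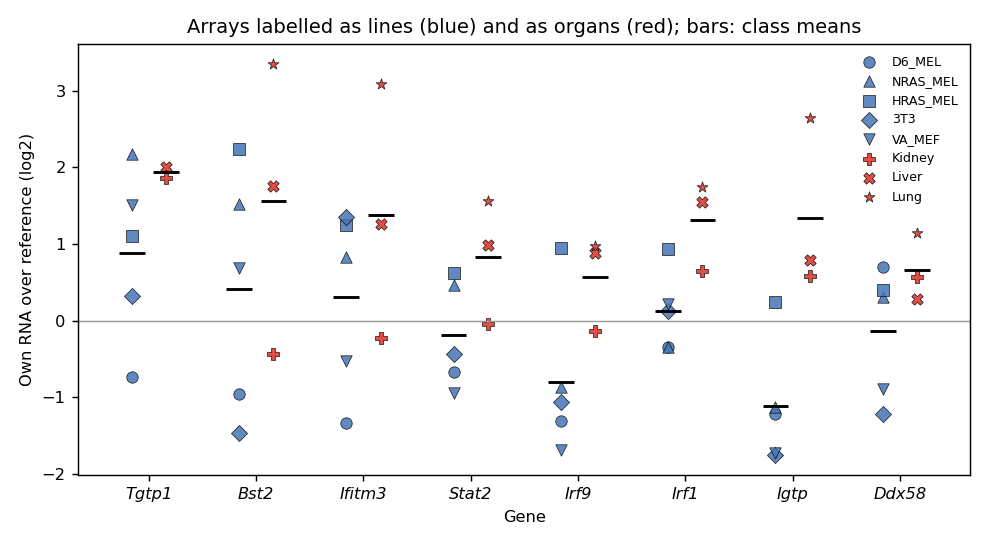
Levels (log2, own RNA over reference) of each gene in the 5 arrays labelled as lines (blue) and the 3 labelled as organs (red), with bars at the class means; Tgtp1 has no value on the array labelled Lung. The classes overlap for every gene except Igtp, whose 5 line values lie below all 3 organ values.

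Of the 39 other pathway genes, 7 were called lower in the lines (3.79% of all genes) and 0 higher (2.91%) by limma in this fit, in which 1935 genes had an unadjusted p under 0.05. Of all genes, 8.87% lay higher in every line than in every organ. The lowest were Ly6e at -3.75, Cish at -2.95, Irf8, a factor of myeloid cells, at -2.57, and Ptpn6, a phosphatase of blood cells, at -2.14, and the others were Psme1, Sp100 and Trim34a. Socs3 at 1.10, Ifrd1 at 0.74, Ifi27 at 0.73 and Daxx at 0.66 had the highest differences and did not pass. Leukocyte markers moved with this contrast: 6 of 10 were called lower in the lines, with a median difference of -2.38, and 2 of 4 endothelial markers were, with a median of -1.97. Leukocyte medians were -1.64 to -1.07 in the 5 lines and -0.52 (Kidney), 0.70 (Liver) and 0.83 (Lung) in the organs. Their part in the result was not tested, and in such bulk RNA fewer cells of a type and less RNA per cell cannot be told apart.

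**Figure D5:**
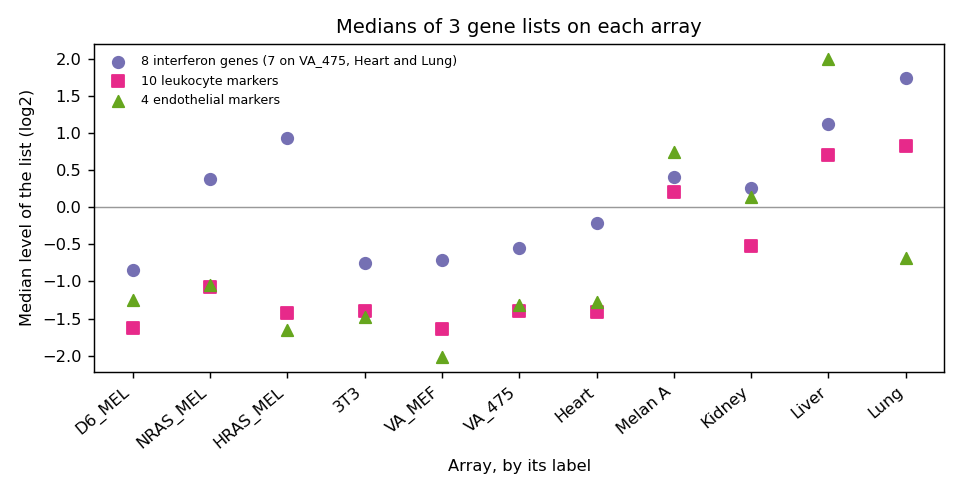
Median level (log2, own RNA over reference) on each array of the interferon-induced genes (purple circles), 10 leukocyte markers (pink squares) and 4 endothelial markers (green triangles). The interferon and leukocyte medians are -0.84 and -1.62 in D6_MEL, 0.38 and -1.07 in NRAS_MEL, and 0.94 and -1.43 in HRAS_MEL. The part of leukocyte RNA in the interferon levels was not tested.

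Across the 11 arrays the 7 genes measured on all of them varied together to different degrees; the arrays share 1 reference and platform, so these correlations are descriptions. The median Pearson r of the 21 pairs was 0.665, from -0.05 (Ifitm3 with Ddx58) to 0.890 (Irf1 with Igtp). High r was common among all genes. Igtp was 14th of 7034 genes by r with Irf1, but at the median r of 0.665 Ddx58 was 779th by r with Igtp. By r with Stat2, Irf9 was 517th. Irf9 followed Igtp at 0.841, and Stat2 followed Ifitm3 at 0.808 but Irf9, its partner in the complex, at 0.579. Without the arrays labelled Heart and Melan A the median was 0.675. For the correlations with the leukocyte median that follow, no share over all genes is given. The correlation with the leukocyte median was 0.873 for Igtp, 0.851 for Irf1, 0.739 for Stat2, 0.683 for Irf9, 0.561 for Bst2, 0.491 for Ifitm3 and 0.469 for Ddx58, over 11 arrays, and 0.294 for Tgtp1 over 8. Without the arrays labelled Heart and Melan A it was 0.860 for Igtp, 0.845 for Irf1, 0.788 for Stat2, 0.670 for Irf9, 0.605 for Bst2, 0.538 for Ifitm3 and 0.549 for Ddx58, over 9 arrays, and 0.567 for Tgtp1 over 7.

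The genes most like each of the 8 were named by the highest r among 7034 genes, a wide field for 11 points. Ifitm3 was followed most closely by Wdr81 (0.950), Lrp1 (0.912) and Ifitm2 (0.911), Stat2 by Cybc1 (0.914), Wdr81 (0.901) and Ifitm2 (0.893), and Irf9 by Castor1 (0.924), Psme1 (0.906) and Riok3 (0.902). Igtp was followed by Selenop (0.970), Wrap53 (0.963) and the complement inhibitor gene Serping1 (0.952), and Irf1 by Gstm1 (0.933), Arhgap45 (0.924) and the pore-forming gasdermin gene Gsdmd (0.921). Bst2 was followed by Kat8 (0.906), Ppil2 (0.891) and Mapk13 (0.870), and Ddx58 by Wdr7 (0.924), Gda (0.895) and Znfx1 (0.870). Tgtp1, over 8 arrays, was followed by Cphx1 (0.948), Zfand2b (0.922) and Ercc2 (0.888). With Spearman's rho 5 of these 24 places were kept, and without the arrays labelled Heart and Melan A 13 were.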

How the data were processed

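The authors deposited 1 table of log ratios of both array channels, taken as log2, for 15247 probes and 11 samples; 15170 to 15210 probes had a value per array. Logarithm base, background handling and normalization: not given in the sources used here, with base 2 assumed. Column medians lay between -0.03 and 0.03, so the columns arrived nearly centred, and signal over background is unknown; the number of arrays limits the precision.

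Each array was centred on its median, every sign was turned, and probes were averaged per gene. The platform annotation gave 9600 probes 1 symbol, 214 several and 5433 none; of the 9600, 9492 matched RefSeq (GRCm38.p6) by gene number and 0 symbols changed. Single arrays were compared as differences with no test. Classes were tested with limma 3.58.1 in R 4.3.3 on genes with a value on every array compared (Benjamini-Hochberg over all genes, threshold 0.05). In a check on simulated data, the fit of lines against organs recovered 20 of 50 genes shifted by 1 (log2) and 40 of 50 shifted by 2. That of the RAS-labelled pair recovered none. Lines and organs stand in for replicates, so each p-value sets the difference between classes against the spread among unlike arrays within a class. It does not reflect error between replicates of 1 line or organ. Named beside the 8 genes were the 4 highest and 4 lowest pathway genes per comparison and the 3 genes of highest r per gene. The genes, lists and alternatives were chosen with earlier results of these data known.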

Additional observations from a re-analysis of the deposited data

How the results depend on the processing

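Centring, quantile normalization, the choice of probes and natural logarithms left the counts of the 8 genes past 2-fold within 1.5 times. As natural logarithms, the genes past 2-fold in either direction would be 1216 in NRAS_MEL minus D6_MEL (485 with base 2), 1539 in HRAS_MEL minus D6_MEL (788) and 1402 in NRAS_MEL minus HRAS_MEL (661). With the array labelled Melan A in place of D6_MEL they were 2038 and 1867; 2 of the 8 genes were then 2-fold higher in NRAS_MEL and 1 in HRAS_MEL, and Igtp in HRAS_MEL turned from 1.46 to -0.58. With the array labelled Heart, which measured 7 of the 8, these counts were 2 and 4, against 3 and 6 of the same 7 with D6_MEL.

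The lines against organs gave 472 calls, 93 with MEL lines alone, 805 with VA_475 and 0 with the arrays labelled Heart and Melan A, where 584 genes had an unadjusted p under 0.05. Leaving out 1 array gave 162 (3T3) to 996 (Liver) calls, with 191 without Kidney, 212 without NRAS_MEL, 223 without D6_MEL and 253 without Lung. For the RAS-labelled pair it gave 0 to 441 calls. There Ifitm3 (1.52) ranged from 0.66 to 2.37 and Stat2 (0.80) from 0.39 to 1.21. Igtp (-0.25) ranged from -1.27 to 0.78, above 0 without the array labelled Melan A or NRAS_MEL (0.44). Irf9 (0.47) ranged from -0.44 (without HRAS_MEL) to 1.37, and was -0.41 without D6_MEL. Irf1 (0.01) ranged from -0.63 (without HRAS_MEL) to 0.64, and was -0.62 without D6_MEL and -0.031 when not centred. The cause of these changes was not tested. The array labelled Lung was highest for 2 of the 8 genes after quantile normalization, an alternative chosen after seeing the data, against 7. Of 24 most-like genes, 5 were kept with Spearman's rho and 13 without the arrays labelled Heart and Melan A. No paired analysis was possible because each label has 1 array.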

Other observations

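The promoter letters shown for the 8 genes occur in other genes on the arrays. Beside the 8, 24 genes with values in D6_MEL and both RAS-labelled arrays held an ISRE and a GAS match in the same window. Of these, 3 were at least 2-fold higher in HRAS_MEL than in D6_MEL and 0 lower, and 1 was higher and 1 lower in NRAS_MEL. Among genes without both matches, 4.76% were higher and 5.92% lower in HRAS_MEL, and 2.46% and 4.33% in NRAS_MEL. They are named here after their values were seen: the kinase gene Sgk1 at 2.25 in HRAS_MEL and 0.29 in NRAS_MEL, the serpin gene Serpinb6a at 1.24 and 0.68, and the embryonic haemoglobin gene Hbb-y at 1.17 and 1.42. Acsbg1, the lower one, stood at -1.23 in NRAS_MEL minus D6_MEL. Oas1a, whose product senses double-stranded RNA, held both matches too and lay at -0.37 and -0.95.

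Of 199 genes other than the 8 with an ISRE match, 9.55% were at least 2-fold higher in HRAS_MEL than in D6_MEL and 5.53% lower, against 4.63% and 5.91% of the 5513 genes without one. In NRAS_MEL 3.52% were higher and 4.52% lower, against 2.43% and 4.32% of 5506 without. For the 456 genes with a GAS match in HRAS_MEL the shares were 6.14% and 3.51%, against 4.68% and 6.11% without. In NRAS_MEL they were 2.41% and 3.28% of 457 genes, against 2.48% and 4.42% without. These shares describe 1 array against another, were looked at after the data were seen and were not tested.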
